A study of Mus musculus with 8 samples.

Results

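The subcortical maternal complex is a protein assembly beneath the surface of the mammalian oocyte and cleavage-stage embryo. The 10 genes examined here encode proteins of this complex or proteins tied to it (Khdc3, Ooep, Nlrp5, Tle6, Padi6, Zbed3, Nlrp2, Nlrp4f, Nlrp9b and Nlrp14). They were taken by symbol, and all 10 were among the 22810 genes of the count table. Their mRNAs are made in the growing oocyte. Much of the oocyte's RNA is degraded while the embryo's own genome is switched on. RNA left from the oocyte carries the mother's allele only, whereas transcription in the embryo can draw on both alleles. A paternal read, if assigned to the right allele, therefore comes from transcription after fertilisation or from RNA brought by the sperm. A maternal read can come from oocyte RNA, from the embryo's maternal allele or from other cells of the mother.

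RNA was measured in 8 single blastocysts of embryonic day 3.5, taken from natural matings and lysed without culture. In the forward cross a B6 (C57BL/6) mother was mated with a cast (Mus musculus castaneus) father, and 3 embryos were sequenced. The reverse cross had a cast mother and a B6 father and gave 5 embryos, numbered 1, 2, 3, 5 and 7. No embryo carried an engineered allele or was treated, and maternal reads are B6 in forward and cast in reverse embryos. The labels do not say which embryos shared a mother, so p-values cover the spread of these embryos only. The main allele tests had no term for each embryo and took the maternal and paternal reads of an embryo as separate libraries. Their p-values therefore measure the spread between allele libraries, which includes differences in level between embryos, and do not use the pairing of alleles. Values with a term for each embryo, which uses this pairing, are given as an alternative.

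The counts are SNP-spanning reads, of which 1060063 to 1632695 were assigned per embryo, and 57.4% to 58.3% of them were B6. All 20 listed blastocyst genes, among them the trophectoderm keratins Krt8 and Krt18 and the inner cell mass factor Nanog, had reads in every embryo. Reverse embryo 1 stood apart, with a median correlation of 0.753 with the other embryos over 13078 genes, against 0.863 to 0.899 for the rest, and with 456 Krt8 reads against 2126 to 3231. In forward embryo 1, the 10 leukocyte genes summed to 1433 maternal and 3 paternal reads, while the other 7 embryos had 1 to 65 maternal reads. Forward embryos 2 and 3 had 47 and 65 of these maternal reads, and the reverse embryos 1 to 7. The leukocyte marker Ptprc was at 0 in 7 of 8 embryos, while Lyz2 had more maternal than paternal reads in 7. Values without these embryos are given where they touch a result.

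The gene starts of 3 members are shown here because the results below turn on them. Khdc3 and Ooep had most reads and were read from both alleles, and Padi6 reads were mostly maternal. The sequences are RefSeq promoter windows of 300 bases in GRCm38.p6, from 250 bases before the start to 50 after it, written 5′ to 3′ on the gene's strand. Khdc3 lies at chr9:73102148-73102447 (+ strand), Ooep at chr9:78378539-78378838 (- strand) and Padi6 at chr4:140742594-140742893 (- strand). Capitals mark the E-box letters CANNTG, which read the same on both strands.
Khdc3: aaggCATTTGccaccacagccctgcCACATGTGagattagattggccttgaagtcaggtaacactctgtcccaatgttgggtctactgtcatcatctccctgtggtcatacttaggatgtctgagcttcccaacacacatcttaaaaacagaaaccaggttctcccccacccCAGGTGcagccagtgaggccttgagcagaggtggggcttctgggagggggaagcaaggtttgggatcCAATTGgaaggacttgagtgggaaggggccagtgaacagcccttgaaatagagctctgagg
Ooep: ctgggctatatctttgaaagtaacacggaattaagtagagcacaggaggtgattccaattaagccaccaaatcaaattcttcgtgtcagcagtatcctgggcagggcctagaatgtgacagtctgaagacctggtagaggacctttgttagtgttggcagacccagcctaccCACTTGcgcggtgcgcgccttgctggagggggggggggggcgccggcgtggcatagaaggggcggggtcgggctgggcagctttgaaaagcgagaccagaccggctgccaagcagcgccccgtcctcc
Padi6: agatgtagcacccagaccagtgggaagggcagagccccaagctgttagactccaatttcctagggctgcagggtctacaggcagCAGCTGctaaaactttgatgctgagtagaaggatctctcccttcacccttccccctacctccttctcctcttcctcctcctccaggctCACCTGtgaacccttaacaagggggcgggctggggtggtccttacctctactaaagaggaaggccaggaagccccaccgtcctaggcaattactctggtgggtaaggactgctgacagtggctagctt

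E-boxes bind helix-loop-helix factors, among them the oocyte factor Figla. The Khdc3 window held 5, of which a pair overlap, the Ooep window 1 and the Padi6 window 2. Such a match is common, since 72.3% of 32851 mouse promoter windows hold at least 1. The windows differed in CpG content, with 0 CpG sites in Khdc3, 15 in Ooep and 2 in Padi6, against a median of 7 over all windows. A match is a description of letters and not a binding site. The RefSeq start of Khdc3 lies inside the GENCODE span given below. Windows were found for 9 of the 10 members, and Nlrp14 had no entry.

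The members differed widely in how many reads they had. Together they held 15093 SNP-spanning reads, of which Khdc3 gave 84.1% and Ooep 13.1%. The other 8 genes gave 410 reads in all, or 2.72%. Tle6 had 252 reads, Padi6 64, Zbed3 43, Nlrp4f 15, Nlrp2 12, Nlrp5 11, Nlrp9b 10 and Nlrp14 3. Genes differ in length and in the number of SNPs, so these reads do not rank the genes by level. In whole blastocysts, fewer cells that hold an RNA and less RNA per cell cannot be told apart.

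**Figure D1:**
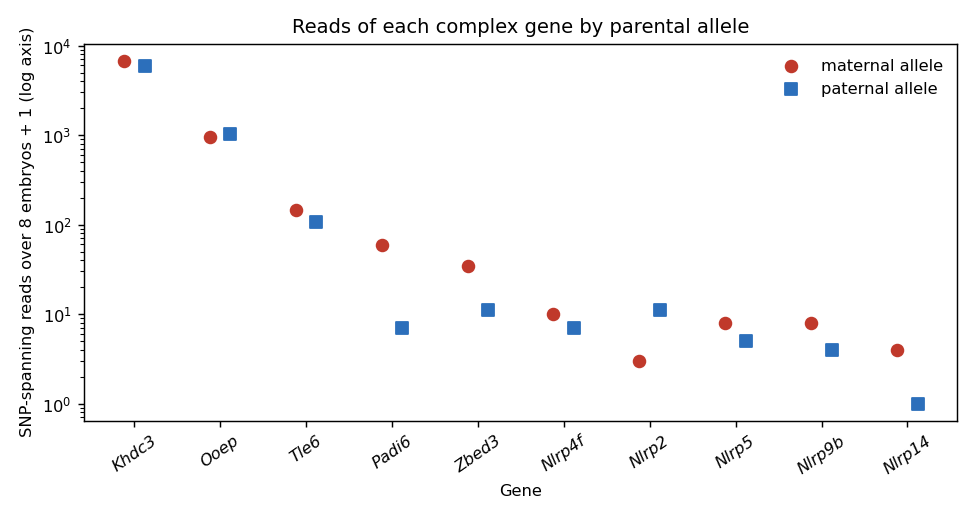
SNP-spanning reads of each gene (horizontal axis) summed over 8 embryos plus 1, on a logarithmic vertical axis, with circles for the maternal and squares for the paternal allele. Khdc3 (6715 maternal and 5984 paternal reads) and Ooep (958 and 1026) lie near each other for both alleles, while Padi6 (58 and 6) is separated.

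Khdc3, also called Filia, encodes a KH-domain protein needed for correct chromosome segregation in early cleavages. Its gene spans chr9:73101836-73104438 on the + strand (GENCODE M21, GRCm38) and shares 1969 bases of the same strand with Gm20509, which was not in the table. Maternal reads were 450, 455 and 955 in forward embryos 1, 2 and 3, against 606, 428 and 1159 paternal reads. In reverse embryos 1, 2, 3, 5 and 7, maternal reads were 555, 1141, 975, 1292 and 892, against 370, 855, 822, 976 and 768 paternal reads. Every embryo thus held at least 370 reads of each allele. Of the reads, 53.6% ± 4.59 (SD, n = 3) were paternal in the forward embryos and 43.6% ± 2.53 (SD, n = 5) in the reverse embryos. The lowest share, 40.0% in reverse embryo 1, had a 95% Wilson interval of 36.9% to 43.2%, which covers counting error only, as do the intervals below.

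Khdc3 had more cast than B6 reads in 7 of 8 embryos, in both crosses. The cast share ranged from 48.5% to 60.0% and lay above the share over all reads of the same embryo in 8 of 8 embryos. The fitted cast over B6 difference was a log2 change of 0.61 (SE 0.34), with an adjusted p of 0.294 in edgeR's quasi-likelihood test. With 1 library size per embryo, which does not scale the B6 and cast libraries separately, it was 0.28 (SE 0.34, adjusted p 0.660). With a term for each embryo, which uses the pairing of its 2 alleles, the change was 0.62 (SE 0.08) with an adjusted p of 3.44e-06. With that term 9.69% of tested genes were called toward cast, and 4.45% without it.

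Ooep, also called Floped, encodes another KH-domain protein, and the complex does not form in oocytes that lack it. The gene lies on the same chromosome, at chr9:78376109-78378725 on the - strand. Its maternal reads were 130, 73 and 109 in the forward embryos and 83, 127, 238, 70 and 128 in the reverse embryos, in the order used above. Paternal reads were 130, 74 and 101 in the forward and 124, 131, 246, 88 and 132 in the reverse embryos. The alleles differed most in reverse embryo 1. Of the reads, 49.5% ± 1.21 (SD, n = 3) were paternal in the forward embryos and 53.6% ± 4.12 (SD, n = 5) in the reverse embryos.

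The allele shares of Khdc3 and Ooep varied little between embryos. The SD of the cast share over 8 embryos was 3.44 percentage points for Khdc3 and 3.55 for Ooep. The median over 8706 genes with at least 10 reads in at least 6 embryos was 11.6 (quartiles 7.72 and 16.7), and genes with many reads have less counting error. Dppa5a, a KH-domain gene of the family list with 17663 reads that lies 7932 bases from Ooep, had an SD of 1.12 but a cast share of only 11.7% to 15.1%. Ooep, its neighbour, ranged from 40.1% to 50.3%.

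**Figure D2:**
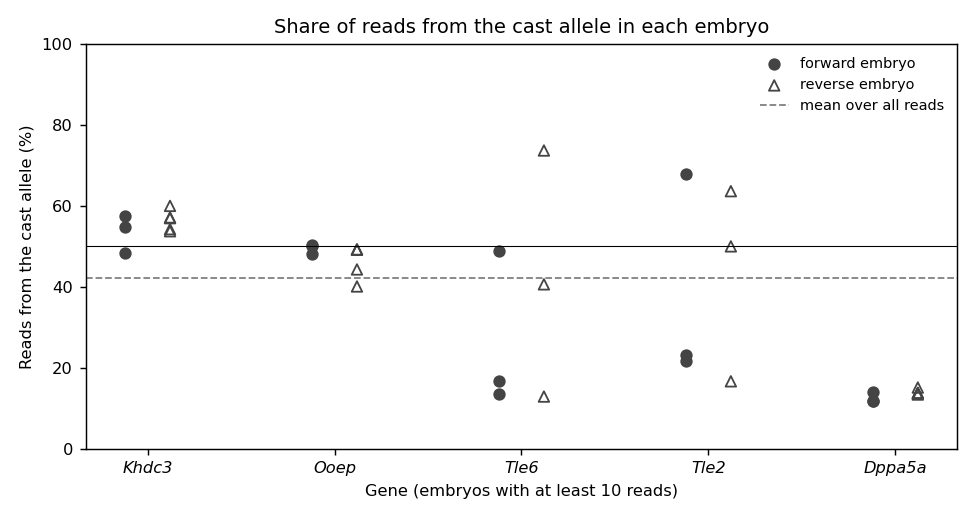
Percentage of reads from the cast allele (vertical axis) for 5 genes, 1 point per embryo with at least 10 reads, with filled circles for forward and open triangles for reverse embryos. The dashed line is the mean over all reads, and Khdc3 lies above it in all 8 embryos while Tle6 spans 12.9% to 73.7%.

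The comparison of parental alleles asked whether members were read from 1 parent's allele. The test was edgeR's quasi-likelihood test with strain and parent as terms, adjusted over the 12565 autosomal genes that reached 10 reads in any allele library. Of these genes 1.42% were called at an adjusted p of at most 0.1, 0.318% toward the maternal and 1.11% toward the paternal allele. Of the 10 members 4 could be tested, and the other 6 had under 10 reads in every library. None of the 4 was called, 1 had an unadjusted p below 0.05, and DESeq2 called 0. The log2 paternal over maternal difference was -0.07 (SE 0.34) for Khdc3 and 0.05 (SE 0.33) for Ooep, each with an adjusted p of 1.0. The median over all tested genes was -0.01.

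Khdc3 and Ooep were also called equivalent, meaning that a log2 difference of 1 or more in either direction was rejected. The adjusted p of this pair of one-sided quasi-likelihood tests was 0.0361 for Khdc3 and 0.0320 for Ooep, and 35.6% of tested genes were called. The calls were lost without forward replicate 3, at 0.133 and 0.112. Without reverse replicate 1, the embryo that stood apart, they were 0.00735 and 0.0123. With a term for each embryo they were 1.04e-08 and 1.43e-05, where 45.3% of genes were called.

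**Figure D3:**
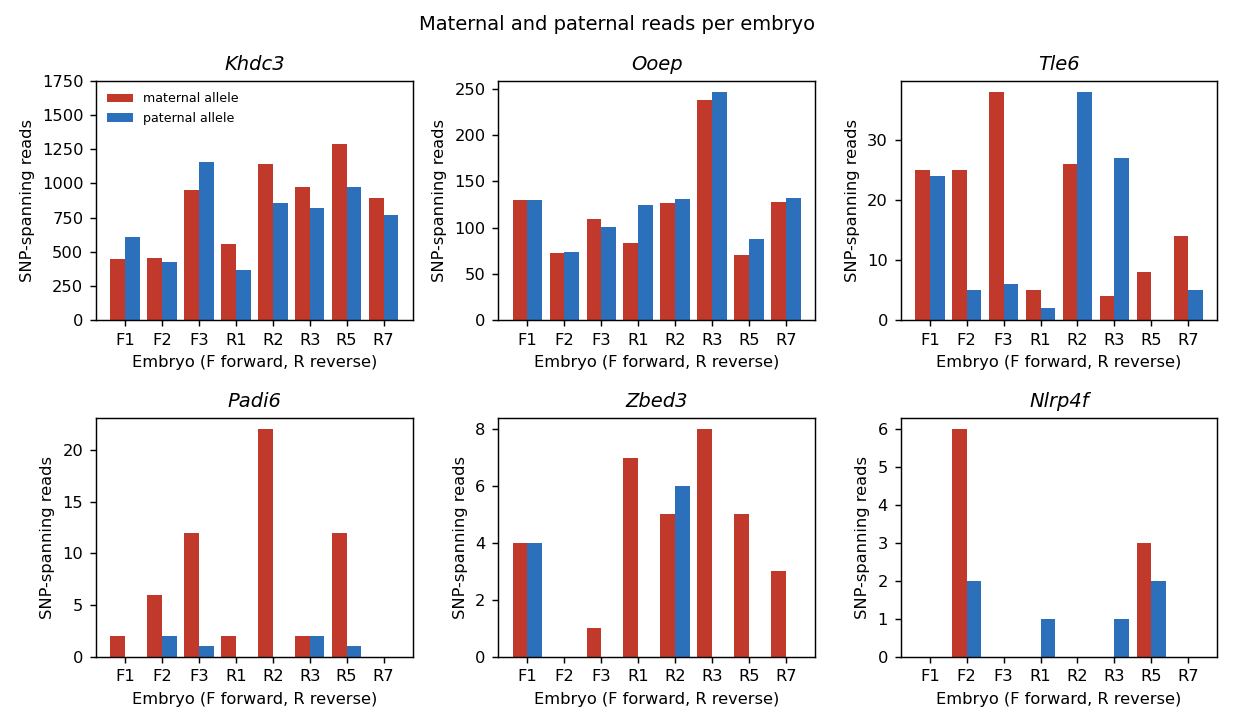
Maternal (red) and paternal (blue) SNP-spanning reads per embryo for 6 genes, each panel with its own vertical axis from 0, with F for forward and R for reverse embryos. Khdc3 and Ooep have both alleles in every embryo, Tle6 changes its leading allele between embryos, and Padi6 and Zbed3 have few or no paternal reads in most embryos.

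Tle6 encodes a Groucho-family protein that binds the other core proteins. It lies at chr10:81590904-81601073 on the - strand. Maternal reads were 25, 25 and 38 in the forward embryos, against 24, 5 and 6 paternal reads. The reverse embryos had 5, 26, 4, 8 and 14 maternal and 2, 38, 27, 0 and 5 paternal reads. The leading allele was maternal in 6 embryos and paternal in reverse embryos 2 and 3. Among the 6 embryos with at least 10 reads, the paternal share went from 13.6% in forward embryo 3 to 87.1% in reverse embryo 3. The Wilson intervals of these shares, 6.40% to 26.7% and 71.1% to 94.9%, did not overlap.

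The log2 paternal over maternal difference of Tle6 was -0.62 (SE 0.62, edgeR adjusted p 1.0). It was -1.13 (SE 0.73) without forward embryo 1 and -0.34 (SE 0.72) without forward embryo 3. With a term for each embryo it was -0.94 (SE 0.55, adjusted p 0.688). In the fit over all embryos the equivalence test gave an adjusted p of 0.399. Tle6 was therefore called neither biased nor equivalent. The SD of its cast share was 24.5 percentage points over 6 embryos, and 92.8% of the 8706 genes had a smaller SD.

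Tle2, another Groucho-family gene, lies 59 bases from Tle6 at chr10:81574561-81590845 on the + strand, so that the ends of both genes face each other. Its maternal reads were 8, 18 and 20 in the forward and 5, 15, 3, 6 and 7 in the reverse embryos. Its paternal reads were 17, 5 and 6 in the forward and 1, 15, 15, 0 and 4 in the reverse embryos. The same allele led in both genes in 6 of 8 embryos. Over the 16 allele libraries, log2 values of Tle6 and Tle2 correlated with r = 0.960, the highest of 12564 genes. This is a description over libraries that share depth and embryo, and Tle2 was singled out after its values were seen. Whether the counting used strand is not given in the sources used here, and a part of shared reads in this likeness was not tested.

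**Figure D4:**
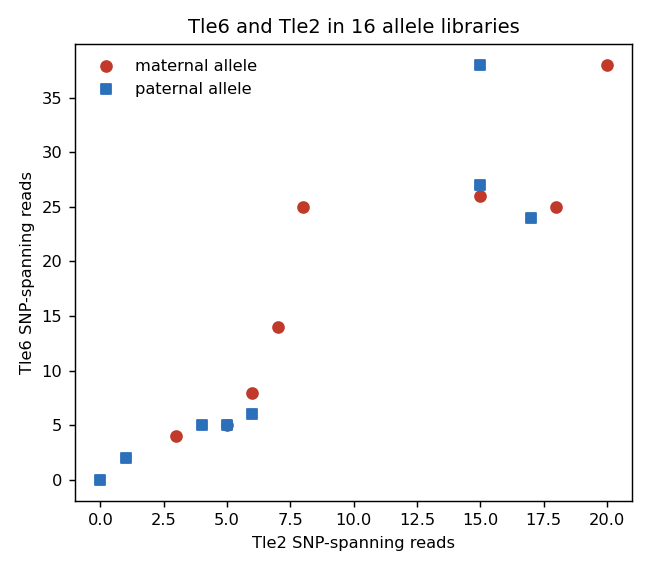
Tle6 against Tle2 SNP-spanning reads in 16 allele libraries, with red circles for maternal and blue squares for paternal libraries. Libraries high in Tle6 are high in Tle2, up to 38 Tle6 reads with 20 Tle2 reads in forward embryo 3, and reverse embryo 5 has 0 paternal reads of both.

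Padi6 encodes a peptidylarginine deiminase family protein that oocytes need for their cytoplasmic lattices. The gene lies at chr4:140727355-140742643 on the - strand. Maternal reads were 2, 6 and 12 in the forward and 2, 22, 2, 12 and 0 in the reverse embryos. Paternal reads were 0, 2 and 1 in the forward and 0, 0, 2, 1 and 0 in the reverse embryos. Maternal reads led in 6 of the 7 embryos with reads, and the alleles were level in reverse embryo 3. The pooled paternal share was 13.0% of the forward and 7.32% of the reverse reads. In reverse embryo 2, 0 of 22 reads were paternal, with a Wilson interval up to 14.9%.

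The log2 paternal over maternal difference of Padi6 was -2.95 (SE 0.96), the largest in size among the 4 tested members, with an unadjusted p of 0.00542. It missed the threshold after adjustment in edgeR (0.233) and in DESeq2 (0.133). Without a filter on low counts the adjusted edgeR p was 0.0964, where 0.617% of 21055 genes were called toward the maternal allele, against 0.318% with the filter. With a term for each embryo it was not called (0.250), where 1.02% of genes were called toward the maternal allele. Over all alternatives the adjusted p ran from 0.0964 to 0.797, and the difference from -3.44 to -2.41. The highest p was without forward replicate 3. Maternal reads of Padi6 from oocyte RNA, from the embryo's maternal allele and from other cells of the mother cannot be told apart.

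Forward embryo 1, with its leukocyte reads, held only 2 of the 58 maternal Padi6 reads, and without it the difference was -2.91 (SE 1.01, adjusted p 0.438). The same embryo held 70 of the 74 maternal reads of Padi1 and 16 of the 19 of Padi4, relatives that modify arginine in other tissues and in leukocytes. Padi1 had a log2 paternal over maternal difference of -1.91 (SE 1.18) and Padi4 of -2.14 (SE 1.05). Neither was called between parents in edgeR (adjusted p 0.941 and 0.703). Both were called toward B6 (adjusted strain p 0.0843 and 0.0376), where 15.5% of tested genes were called between strains. In the reverse embryos, where B6 is the paternal allele, Padi1 had 3 maternal and 14 paternal reads and Padi4 1 and 5. Padi2 had 32 of its 36 maternal reads in forward embryo 1. The highest maternal count of Padi3, 5 of 12, was in reverse embryo 3.

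Zbed3, a zinc-finger protein placed in the complex, lies at chr13:95323612-95337841 on the + strand, overlapping the small RNA gene Snora47, which had 16 reads. Its maternal reads were 4, 0 and 1 in the forward and 7, 5, 8, 5 and 3 in the reverse embryos. Paternal reads were 4 in forward embryo 1 and 6 in reverse embryo 2, and 0 in the others. The 5 embryos with maternal reads only include 4 of the 5 with a cast mother. Of all 43 reads 32 were cast, and the cast share lay above that of the embryo in 6 of 7 embryos with reads. Zbed3 entered the fit only without a filter on low counts, with a log2 paternal over maternal difference of -1.32 (SE 1.10, edgeR adjusted p 0.806) and a cast over B6 difference of 1.30 (SE 1.10, adjusted p 0.502).

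The 5 NLRP members belong to a family of nucleotide-binding, leucine-rich repeat proteins with many oocyte genes in mouse. Nlrp5, also called Mater, is the founding maternal-effect gene of the complex, and embryos of mothers without it stop at an early cleavage stage. It lies at chr7:23385889-23441922, and had 7 maternal and 4 paternal reads, with at most 2 in any library. Nlrp4f (chr13:65177111-65205977) had 9 maternal and 6 paternal reads, of which 6 and 2 were in forward embryo 2. Nlrp9b (chr7:19991465-20073306) had 7 and 3 reads. Nlrp14 (chr7:107166990-107198102) had 3 maternal reads, all in reverse embryo 1. Family members have similar sequences and reads mapping to multiple locations were left out by the authors, so these counts are uncertain.

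Nlrp2 (chr7:5298547-5351035) had reads of the B6 allele only. Its 2 maternal reads were in forward embryos 1 and 3, and its 10 paternal reads were 5, 1, 1, 2 and 1 in the reverse embryos. Each reverse embryo thus held a paternal read, and 0 of all 12 reads were cast, which allows a share of up to 25%. Without a filter, the cast over B6 difference was a log2 of -3.16 (SE 1.30, edgeR adjusted p 0.112).

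The 7 members with under 100 reads each held 119 maternal and 39 paternal reads in sum. Maternal reads outnumbered paternal ones in 8 of 8 embryos, from 4 against 2 in reverse embryo 7 to 29 against 7 in reverse embryo 2. Padi6 supplied 58 of the 119 and Zbed3 33. The 5 NLRP members alone had 28 maternal and 23 paternal reads. These sums are a description of few reads, with no test.

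The level of a member could differ between B6 and cast mothers, and was compared over reads of both alleles per embryo. Levels are CPM, the reads scaled to a common total of SNP-spanning reads. Khdc3 had 647, 767 and 1655 CPM in the forward embryos and 615 to 1703 in the reverse embryos (median 1249). The groups overlapped, with forward embryo 1 and reverse embryo 1 lowest. Ooep had 128 to 164 CPM in forward and 119 to 323 in reverse embryos, highest in reverse embryo 3. Tle6 had 26.0 to 34.4 in forward and 4.65 to 40.0 CPM in reverse embryos, lowest in reverse embryo 1. Padi6 had 1.22 to 10.2 and 0 to 13.8 CPM, and Zbed3 0 to 4.90 and 2.83 to 6.88.

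None of the 5 members tested differed between crosses in edgeR, where 0.0688% of 13078 genes were called, 0.0306% higher in forward and 0.0382% higher in reverse embryos. The log2 forward over reverse difference was -0.33 (SE 0.44) for Khdc3, -0.46 (SE 0.41) for Ooep, 0.70 (SE 0.60) for Tle6, 0.12 (SE 1.09) for Padi6 and -1.26 (SE 1.12) for Zbed3. The lowest unadjusted p was 0.266, and adjusted p-values ran from 0.810 to 0.992. Single embryos moved these values: leaving out each in turn gave -0.89 (without forward embryo 3) to -0.07 (without forward embryo 1) for Khdc3, and -0.60 (without reverse embryo 5) to -0.10 (without reverse embryo 3) for Ooep. Tle6 ranged from 0.44 (without reverse embryo 1) to 1.21 (without reverse embryo 2). Padi6 ranged from -0.48 (without forward embryo 3) to 0.79 (without reverse embryo 2), and Zbed3 from -3.27 (without forward embryo 1) to -0.73 (without forward embryo 2).

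Other oocyte genes ranged from mostly maternal to mostly paternal reads in sum. These sums pool more reverse than forward embryos, so B6 reads count more often as paternal. Zar1, for example, had B6 reads only, 6 maternal in the forward and 13 paternal in the reverse embryos. Of 30 listed, 23 were in the table and 11 could be tested, and 0 were called in edgeR, while 3 had an unadjusted p below 0.05. Their median log2 paternal over maternal difference was -0.03, with 6 of 11 below 0. Oas1d, an oligoadenylate synthetase family gene of the oocyte, had 39 maternal and 3 paternal reads (difference -2.86, SE 0.99, adjusted p 0.290). Zp2, a protein of the egg coat, had 47 and 8 reads (-1.90, SE 1.12, adjusted p 0.902). Gdf9, an oocyte growth factor, had 24 and 6, and Npm2, an oocyte histone chaperone, 35 and 12. Forward embryo 1, with its leukocyte reads, held 12 of the maternal Gdf9 and 17 of the maternal Npm2 reads, and the other embryos 12 and 18. The Npm2 excess came from the forward embryos (24 maternal and 0 paternal reads), while the reverse embryos had 11 and 12. Better-read genes had more paternal reads in sum, which the larger number of reverse embryos favours where reads lean to B6. Cnot7, a deadenylase subunit, had 259 and 346 (difference 0.32, SE 0.44) and Tcl1 163 and 307 (0.37, SE 0.85). Neither was called between parents. Most Tcl1 reads were B6 in both crosses. There were 108 maternal and 40 paternal Tcl1 reads in the forward and 55 and 267 in the reverse embryos. All 55 were in reverse embryo 3. Bcl2l10, a cell death regulator of the oocyte, had 4 maternal and 19 paternal reads, and Sohlh2, an oocyte transcription factor, 0 and 17. All reads of these 2 genes were in reverse embryos, where the paternal allele is B6. Parent and strain therefore cannot be told apart for them.

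Dppa3, known as a maternal protein and also active in pluripotent cells, had the most reads of the list, with 17104 maternal and 25142 paternal reads. It was called equivalent between parents and biased between strains, with an adjusted strain p of 0.00101. Of all tested genes, 35.6% were called equivalent and 15.5% biased between strains. Its cast share was 19.5% to 22.4% in the 8 embryos.

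**Figure D5:**
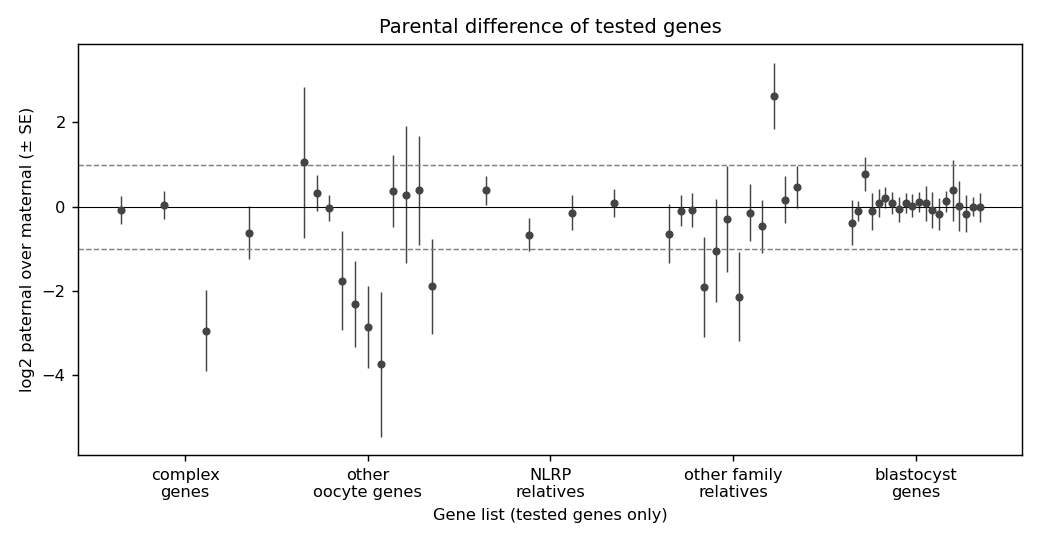
Log2 paternal over maternal difference from edgeR (vertical axis) with its standard error for the tested genes of 5 lists, each in alphabetical order, with dashed lines at the equivalence margin of 1. Khdc3 and Ooep lie near 0, as do most blastocyst genes, while Padi6 at -2.95 lies among the lowest oocyte genes.

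No tested relative of the members was called between parents in the main edgeR fit, with strain and parent as terms. Of the 9 further NLRP genes with a row of counts, 4 were tested, 0 were called between parents and 2 equivalent, with a median difference of -0.03. Nlrp4e, which lies 23612 bases from Nlrp5, had 506 maternal and 580 paternal reads, and Nlrp4c had 187 and 175. Both were called toward B6 (adjusted strain p 0.0877 and 0.0105). Among 12 tested relatives of the other families 0 were called between parents and 2 were equivalent, and the median was -0.22. Tle3 had more paternal than maternal reads in 8 of 8 embryos (21 maternal and 122 paternal in sum, difference 2.63, SE 0.79, adjusted p 0.158). It passed in edgeR once each embryo had its own term (adjusted p 0.0139) and without a filter on low counts (0.00815). With the term, only the share of genes called toward the maternal allele was counted, 1.02%.

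Of 12 listed maternal-effect partners, 10 were tested, 6 were equivalent and 0 were called between parents (median 0.01). Dnmt1, the maintenance DNA methyltransferase, had 332 maternal and 670 paternal reads (difference 0.99, SE 0.35, adjusted p 0.319). Dnmt1 passed once each embryo had its own term (adjusted p 0.0134), where the share of genes called toward the paternal allele was not counted. Trim28 and Uhrf1, which act with Dnmt1 in keeping imprints, differed by -0.06 (SE 0.23) and 0.02 (SE 0.24). All 20 blastocyst genes were tested, 16 were called equivalent and 0 differed between parents (median 0.02).

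Each list for other cells that could be present summed to fewer reads than the blastocyst genes in every embryo. The highest such sum was 1436 leukocyte reads in forward embryo 1, against 9168 blastocyst reads there. Single genes could be high, and Wfdc2 had more reads of each allele than the blastocyst factors Cdx2, Pou5f1, Sox2 and Sox17. The cumulus and granulosa genes in the table, 7 of 12, summed to 65 maternal and 77 paternal reads, and 2 were tested with 0 calls between parents. The cumulus genes Has2 and Ptgs2 were not in the table, which does not show that their RNA was absent. Ptx3 had 4 maternal and 0 paternal reads, all in forward embryo 1, and Tnfaip6 had 4 and 6. Sperm genes, 4 of 8 in the table, had 27 maternal and 45 paternal reads. The uterine and oviduct list had 780 and 677 reads, of which Wfdc2 had 427 and 469, with 0 of 5 tested genes called. Forward embryo 1 had the most, 190 maternal and 172 paternal. It held 10 of 10 maternal reads of Ovgp1, 9 of 10 of Sprr2f and 10 of 14 of Pax8. For Ltf it held 3 of 6, for Msx1 74 of 187 and for Wfdc2 79 of 427, while Muc1 had most maternal reads in forward embryo 3. Of 7 leukocyte genes tested, 2 were called toward the maternal allele, Lyz2 (1144 maternal and 5 paternal reads) and C1qb (279 and 1). Once each embryo had its own term, Lyz2 was called (adjusted p 0.000170) and C1qb was not (adjusted p 1.0). The part of leukocyte or of uterine and oviduct RNA in the member values was not tested beyond leaving out forward embryo 1.

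The genes whose profile was most like the mean of the 5 members with at least 20 reads were Ndufaf3 (r = 0.896), Use1 (0.884), Gch1 (0.852), Tmem147 (0.850) and Tac2 (0.837). These are correlations of log2 values over 16 allele libraries, which share embryos, strain and depth, and are given as a description.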

How the data were processed

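The authors deposited raw counts, without normalization: for every gene, the reads over SNPs that each embryo had from the B6 and from the cast allele. Per the methods, RNA of single blastocysts was amplified with a SMART-Seq2 compatible protocol, aligned to mm10 with STAR, cleared of reads mapping to multiple locations, restricted to annotated SNPs and summed per gene in Allelome.Pro. The submitters' processing notes name STAR 2.5.2b, SAMtools 1.9-92 and bedtools. Use of strand is not given in the sources used here. Full-length amplification without molecular identifiers means that reads are not independent molecules.

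Maternal and paternal counts of each embryo gave 16 allele libraries. Positions came from GENCODE M21 (18286 genes), RefSeq (2999) or a synonym (415), and 1110 genes were not matched. X-linked and unmatched genes were left out of tests. edgeR 4.0.16 in R 4.3.3 (limma 3.58.1) was used with TMM factors, terms for strain and parent, the quasi-likelihood test and Benjamini-Hochberg adjustment over all genes tested. The methods give no model formula. Levels were tested on both alleles summed per embryo, for genes with at least 10 reads in at least 1 embryo. Equivalence used a pair of one-sided tests against a log2 margin of 1. The tests were run on simulated counts that had neither paired alleles nor a strain effect, so that check covers neither. DESeq2 1.42.0, RLE factors, 1 library size per embryo, other filters, a term for each embryo, an interaction of strain and parent, separate alleles for the level, and leaving out each embryo were alternatives.

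The alleles of an embryo are a true pair, and their deviations from the group means correlated with r = 0.07 to 0.44. The members and all lists were chosen with earlier results of these data known. Named genes were the 10 members, genes called in the other lists and up to 4 per list with most reads; further named genes were chosen after their values were seen. No mitochondrial genome gene of the list was in the table. Shares need at least 5 reads in an embryo, and ranges of shares at least 10.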

Additional observations from a re-analysis of the deposited data

How the results depend on the processing

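Of 351 recomputed values, 335 kept their direction and their side of the threshold, or, for counts, stayed within 1.5 times and, for paternal shares, within 1 SD over embryos. Size could still move, as in the leave-one-out values of Tle6 and of the levels given above. The number of members called toward the maternal allele was 0 and became 1 (Padi6) without a filter on low counts. The number called toward cast was 0 and became 1 (Khdc3, log2 0.62) with the replicate block, a term for each embryo that uses the pairing of its alleles. The number of equivalent members was 2 and ranged from 0 to 2 when each embryo was left out, with 0 without forward replicate 3. The strain difference of Ooep turned to -0.088 with 1 library size per embryo, and that of Padi6 ranged from -0.013 (without reverse replicate 2) to 1.001 when each embryo was left out. The level difference between crosses turned to 0.29 for Khdc3 and -0.025 for Tle6 with paternal reads alone, and to -0.31 for Padi6 with maternal reads alone. For Padi6 it ranged from -0.48 to 0.79 when each embryo was left out. None of these reversed values passed the threshold, and the cause was not tested. Forward and reverse embryos of the same number shared only a number (r = 0.11, -0.0009 and 0.08), and with the replicate number as a block 0 of 5 members differed in level. Neither block changed another call of the members. In the other lists the term for each embryo ended the parental call of C1qb and added those of Tle3 and Dnmt1. Under 10 reads per library, 6 members could not be tested with the filter.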
